A study of Mus musculus with 12 samples.

Results

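Translation initiation factors were taken as every gene of the table whose symbol opens with Eif and a digit from 1 to 6, a rule by name that 54 of 14244 genes met. Besides the core factors, the rule took in the kinases that phosphorylate eIF2 (Eif2ak), the proteins that bind and hold back eIF4E (Eif4ebp) and a helicase of the exon junction complex (Eif4a3). The values came from poly(A) RNA-seq of gut epithelial cells from C57BL/6 male littermates, all 8 weeks old, 5 WT and 7 Chd8L+/-, with a separate library per mouse. Chd8L+/- mice carry 1 disrupted allele of Chd8, which encodes a chromatin remodeler, in all of their tissues, and were bred from Chd8L+/- fathers and WT mothers. The cells were loosened from washed intestinal sections and pelleted without a sort, and the gut segment is not given in the sources used here.

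Initiation is the step at which the small ribosomal subunit is brought to an mRNA and set on its start codon. eIF2 carries the initiator tRNA to that subunit, eIF3 forms a scaffold on it, the eIF4F complex binds the mRNA cap and unwinds the leader, and eIF1 with eIF1A keeps the scanning ribosome from settling on a wrong codon, after which eIF5 and eIF5B let the large subunit join. Stress kinases phosphorylate eIF2 and so block its exchange factor eIF2B, and the mTORC1 kinase frees eIF4E from its binding proteins. The gut lining renews itself continually and makes large amounts of protein.

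Eif1 was lower in every Chd8L+/- mouse than in every WT mouse, with a Chd8L+/- mean at 60.2% of the WT mean. Eif6 followed at 66.3%, and most of the other factors lay close to their WT level. Values are normalized counts, the reads counted on a gene divided by the size factor of the library, and the ± sign gives the SD between mice. The test between genotypes was limma, applied to log2(normalized count + 1) of every gene whose mean reached 10 (12808 genes), with Benjamini-Hochberg adjustment over all of them. Of the 54 initiation factors, 53 could be tested. Eif5a2, a second gene for eIF5A, had 8.56 ± 7.80 in WT (n = 5) and 10.4 ± 4.70 in Chd8L+/- libraries (n = 7) and was below that minimum. At an adjusted p of 0.05 or less in limma, 0 initiation factors were lower and 0 were higher in Chd8L+/- libraries, against 0.0234% and 0% of all genes. Before adjustment, at a p of 0.05 or less, 5 were lower (Eif1, Eif6, Eif4e2, Eif1b and Eif1ad) and 3 were higher (Eif2b3, Eif3a and Eif3b), where 11.8% of all genes were lower and 12.5% higher. DESeq2 on the reads recovered from the table, the tool of the study, called 2 initiation factors lower (Eif1 and Eif6) and 0 higher, against 4.61% and 1.84% of all genes. The quasi-likelihood test of edgeR on the same reads called 0 in either direction, against 0.0388% of all genes lower and 0% higher, and gave 6 lower and 3 higher before adjustment, against 12.3% and 9.98%. WT replicate 2 stood apart from the other WT mice: on the first principal component of all genes, with 39.7% of the variance, it lay at 41.0 among the Chd8L+/- libraries (0.26 to 42.7), while the other WT libraries lay between -67.5 and -26.2. Chd8, the targeted gene, had 823 to 1050.2 normalized counts in WT and 1084 to 1483 in Chd8L+/- libraries; these counts cover the whole gene, so they do not show the disrupted part and do not check the allele. Without WT replicate 2, limma called 6 initiation factors lower (Eif1, Eif6, Eif1ad, Eif4e2, Eif4e3 and Eif4h) and 5 higher (Eif2b1, Eif2b3, Eif3a, Eif3b and Eif3l) at an adjusted p of 0.05 or less, where it called 13.6% and 14% of all genes; before adjustment it had 9 lower and 10 higher, against 19.9% and 20.3%.

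**Figure D1:**
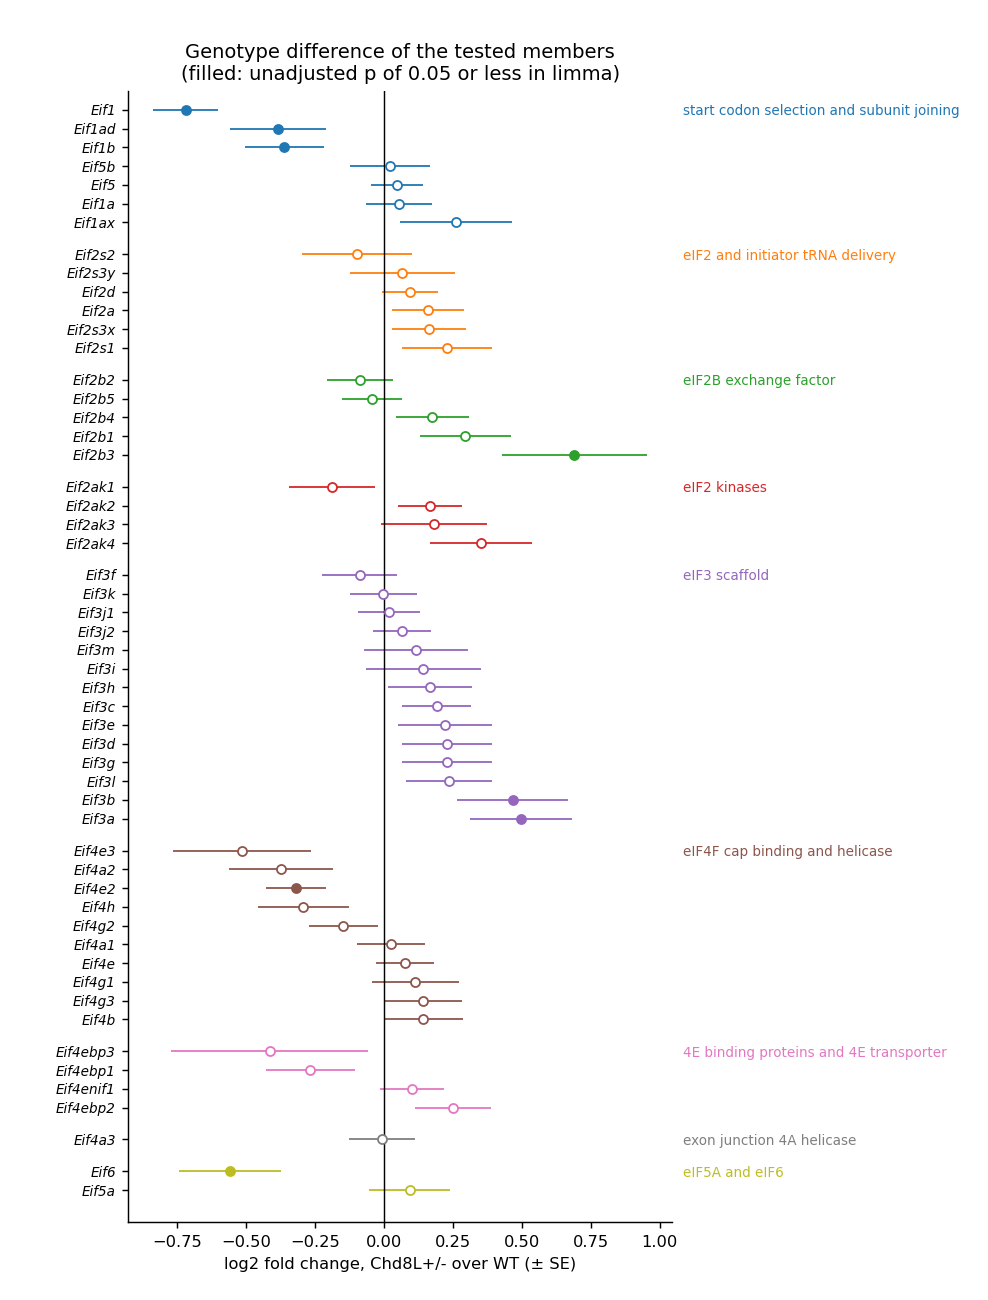
The log2 fold change of each of the 53 tested initiation factors, Chd8L+/- over WT, is plotted with its standard error from limma, grouped by role. Filled points have an unadjusted p of 0.05 or less; Eif1 at -0.72 and Eif2b3 at 0.69 are the ends of the range.

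Eif1 encodes eIF1, the small protein that sits near the P site of the scanning subunit and guards start codon choice. It lies at chr11:100319885-100322096 on the plus strand of GRCm38, overlaps no other annotated gene, and has a close paralog, Eif1b, at chr9:120492232-120495330, also on the plus strand. The first 300 bases of each coding sequence are shown, from the start codon on, because the counts of 2 such similar genes are worth comparing only if their reads can be told apart. Both come from the GENCODE M21 annotation on GRCm38, where each coding sequence is 342 bases long and each transcript has 4 exons. Capitals mark the bases that differ between the pair.
Eif1: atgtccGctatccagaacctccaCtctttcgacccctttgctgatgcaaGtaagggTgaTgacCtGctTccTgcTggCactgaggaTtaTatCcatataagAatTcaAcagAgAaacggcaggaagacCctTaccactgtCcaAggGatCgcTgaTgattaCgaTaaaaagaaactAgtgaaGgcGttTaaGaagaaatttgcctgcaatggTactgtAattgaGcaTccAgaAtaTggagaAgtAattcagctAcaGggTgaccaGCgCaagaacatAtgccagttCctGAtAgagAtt
Eif1b: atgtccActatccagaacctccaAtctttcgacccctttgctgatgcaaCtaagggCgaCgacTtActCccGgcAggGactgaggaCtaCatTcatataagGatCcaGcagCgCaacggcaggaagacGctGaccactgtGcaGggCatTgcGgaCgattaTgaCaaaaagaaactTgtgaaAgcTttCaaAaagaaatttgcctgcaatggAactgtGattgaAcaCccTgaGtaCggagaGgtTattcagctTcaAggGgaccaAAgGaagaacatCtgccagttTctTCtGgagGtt
Over the whole coding sequence the pair differed at 64 positions, 55 of them at the last base of a codon, and was 81.3% identical. The longest identical run was 25 bases, so no 75-base read, the read length of these libraries, could match both coding sequences in full.

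Eif1 had the lowest fold change and the smallest p of all initiation factors. Its normalized count was 5439, 4354, 6284, 6296 and 6570.4 in WT replicates 1 to 5. In Chd8L+/- replicates 1 to 7 it was 3654, 3602, 3269, 3479, 3678, 3424 and 3268. All 7 Chd8L+/- libraries were therefore below all 5 WT libraries, and the WT library nearest to them was replicate 2. The mean fell from 5789 ± 908 (n = 5) to 3482 ± 172 (n = 7), and DESeq2 called it with a log2 fold change of -0.73 (adjusted p = 2.19e-07). In limma the log2 fold change was -0.72 (standard error 0.12, unadjusted p = 2.79e-05) and the adjusted p of 0.0714 missed the threshold. The alternatives gave adjusted p-values of 4.92e-19 to 0.260. The lowest came from DESeq2 without WT replicate 2, a fit added after seeing the data. A two-sided exact permutation test of the genotype labels of the 12 libraries gave p = 0.00126, the smallest that these group sizes allow. Eif1 was singled out with its result known, so none of its p-values tests a gene chosen beforehand. Among all genes tested, Eif1 ranked 5 by p, and 640 of the 12808 had a fold change at least as low. In bulk RNA of a mixed epithelium, fewer cells of a type and less RNA per cell cannot be told apart.

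The coefficient of variation of Eif1 was 15.7% in WT, or 7.98% without WT replicate 2, and 4.93% in Chd8L+/- mice. Between 2946 and 6348 reads lay behind each value, which gives a counting error of 1.26% to 1.84%, well under the spread between mice. As CPM of the recovered reads, which uses the library total in place of the size factor, Eif1 stood at 256 to 334 in WT and 152 to 212 in Chd8L+/- libraries, again without overlap. No overlap in the lower direction was seen in 0.273% of all genes tested and in the higher direction in 0.242%; Eif1 was the only initiation factor of either kind. The library names open with a letter whose meaning the labels do not give. Within letter A, the WT values of 5439 and 4354 stood against 3269 and 3479 in Chd8L+/- mice. Within letter B, the WT values were 6296 and 6570 and the Chd8L+/- value 3678. Within letter C, the WT value of 6284 stood against 3654, 3602 and 3424. The direction was the same in all 3 letters that held both genotypes, and letter D held Chd8L+/- replicate 7 alone. With the letter as a block in limma, the log2 fold change of Eif1 was -0.70 and its adjusted p 0.0434, past the threshold; it was the 1 initiation factor called lower in that fit, with 0 higher, against 2.15% and 1.37% of all genes. Without WT replicate 2 it was -0.82 with an adjusted p of 0.00256 in limma, and leaving out any other library gave values between -0.74 and -0.67 with adjusted p above the threshold.

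**Figure D2:**
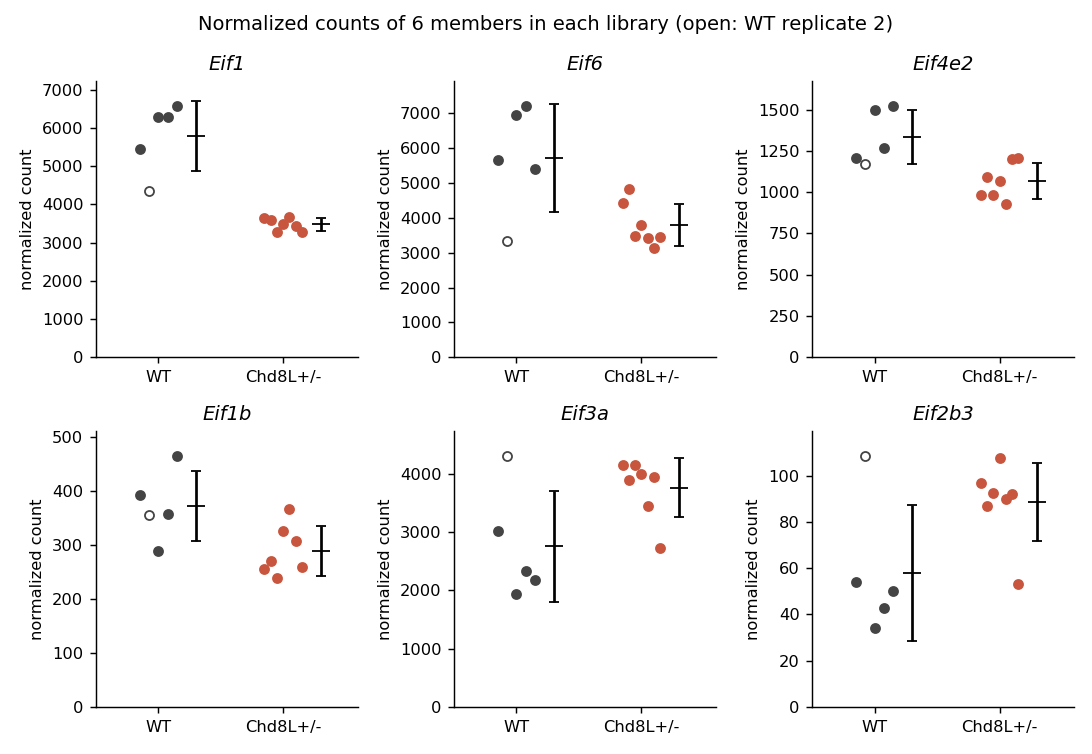
Normalized counts of Eif1, Eif6, Eif4e2, Eif1b, Eif3a and Eif2b3 are plotted for each library from 0, with a bar for the mean and SD of each genotype and an open point for WT replicate 2. For Eif1 all Chd8L+/- points are below all WT points. For Eif6, Eif4e2 and Eif1b the open point lies within the Chd8L+/- range, and for Eif3a and Eif2b3 above it.

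Part of the Eif1 transcript is found elsewhere in the genome. Of the 1248 stretches of 75 bases in its longest annotated mRNA, 319 (25.6%) occurred in transcripts of 14 other genes, 13 of them processed pseudogenes without a value here. The remaining gene, Emd, which encodes the nuclear envelope protein emerin, shares 113 stretches (9.05%) through 1 of its annotated transcripts. Emd, looked up after its values were seen, had 1440 ± 186 in WT (n = 5) and 993 ± 72.4 in Chd8L+/- libraries (n = 7), a log2 difference of -0.53 (limma adjusted p = 0.121), with no overlap between the groups. How the counting program treated reads with several matches is not given in the sources used here, and the part of shared reads in the Eif1 values was not tested.

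Eif1b, the paralog, stood at 393, 355, 288, 357 and 465 in WT and between 238 and 367 with a median of 271 in Chd8L+/- libraries. The ranges overlapped, with 4 of 7 Chd8L+/- libraries below the lowest WT value. The mean was 372 ± 64.5 in WT (n = 5) and 289 ± 46.0 in Chd8L+/- libraries (n = 7), with log2 fold change -0.36 and standard error 0.14 (limma adjusted p = 0.159). It was far scarcer than Eif1, which had 12.3 to 21.8 times as many normalized counts in WT and 10.03 to 14.3 times as many in Chd8L+/- libraries, on transcripts of 1322 bases (Eif1) and 1035 bases (Eif1b). Both genes thus had negative fold changes, and that of Eif1b ranged from -0.45 to -0.17 over the alternatives, with a lowest adjusted p of 0.0780. In limma it was -0.18 (unadjusted p = 0.192) with length and GC trends removed and -0.24 (unadjusted p = 0.135) with the letter block. Between Eif1b and any other gene, 0 stretches of 75 bases were shared. An uncharacterized gene, D830035M03Rik, overlaps Eif1b on the opposite strand, and the use of strand in counting is not given.

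Among the other start codon and subunit joining factors, fold changes lay on both sides of 0. Eif1a and Eif1ax encode forms of eIF1A, the partner of eIF1 on the scanning subunit. Eif1ax was 672, 1253, 583, 589 and 905 in WT and between 698 and 1309 with a median of 932 in Chd8L+/- libraries, with log2 fold change 0.26 and standard error 0.20 (limma adjusted p = 0.431). Its WT replicate 2 was the highest of its group, and the groups overlapped almost throughout. Eif1a (log2 fold change 0.06), Eif5 (0.05), whose product makes eIF2 hydrolyse GTP, and Eif5b (0.02), whose product joins the subunits, lay close to 0. Eif1ad, named for its eIF1A-like domain, had 1175 ± 218 in WT (n = 5) and 903 ± 181 in Chd8L+/- libraries (n = 7), with log2 fold change -0.38 and standard error 0.17 (limma adjusted p = 0.196). Chd8L+/- replicate 5 had its lowest value, 564, and 14.3% of the stretches of its transcript also occur in Banf1 on the opposite strand. Of these 7 start codon and joining genes, 3 reached an unadjusted p of 0.05, all of them lower, where 11.8% of all genes were lower. The median log2 fold change of the 7 was 0.02.

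Of the factors that deliver the initiator tRNA, none had an unadjusted p of 0.05 or less in limma. The 6 genes, the 3 subunits of eIF2 with Eif2a and Eif2d, whose products can deliver tRNA in its place, had log2 fold changes of -0.10 to 0.23 with a median of 0.13. Eif2s1, the alpha subunit that the stress kinases phosphorylate, was 619.5, 831, 573, 422 and 745 in WT and between 587 and 840.3 with a median of 769.6 in Chd8L+/- libraries, with log2 fold change 0.23 and standard error 0.16 (limma adjusted p = 0.394). Only Chd8L+/- replicate 3 lay above the highest WT value. Eif2s2, the beta subunit, was 1618, 2229, 2568, 2738 and 2535 in WT and between 1548 and 3261 with a median of 2043 in Chd8L+/- libraries, with log2 fold change -0.10 and standard error 0.20 (limma adjusted p = 0.785). The Chd8L+/- range enclosed the WT range on both sides, and 22.4% of the stretches of this transcript occur in a processed pseudogene. The gamma subunit has an X-linked and a Y-linked gene; Eif2s3y, the Y-linked one, was detected in all 12 libraries (917 ± 276 in WT, n = 5, and 926 ± 126 in Chd8L+/-, n = 7), as the label of male mice asks, and Eif2s3x had a log2 fold change of 0.16.

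The exchange factor eIF2B, which reloads eIF2 with GTP and is the target of the stress pathway, has 5 subunits. Eif2b3, the gamma subunit, had the highest fold change of all initiation factors. It was 54.2, 109, 34.3, 42.6 and 50.2 in WT and between 53.2 and 108 with a median of 92.0 in Chd8L+/- libraries. WT replicate 2 was above all other libraries of both groups, while the other WT values were below all Chd8L+/- values but that of replicate 7, which stood apart from its group. The mean was 58.0 ± 29.3 in WT (n = 5) and 88.5 ± 16.9 in Chd8L+/- libraries (n = 7), with log2 fold change 0.69 and standard error 0.26 (limma adjusted p = 0.148). The adjusted p ranged from 0.000419 to 0.379 over the alternatives and was 0.00789 in limma without WT replicate 2. Its lowest value came from DESeq2 without WT replicate 2, a fit added after seeing the data. Of the tested initiation factors only Eif4ebp3 had fewer counts, so the counting error of Eif2b3 is among the larger ones. Eif2b2, the beta subunit, was 466, 425, 540.4, 552 and 438 in WT and between 371 and 568 with a median of 457 in Chd8L+/- libraries, with log2 fold change -0.09 and standard error 0.12 (limma adjusted p = 0.677), with the lowest and the highest value both in Chd8L+/- mice. The alpha subunit Eif2b1 (0.29), the delta subunit Eif2b4 (0.18) and the catalytic epsilon subunit Eif2b5 (-0.04) had log2 fold changes in between, and the median of the 5 was 0.18.

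The 4 eIF2 kinases each answer to a different stress and stop most initiation when active, and none had an unadjusted p of 0.05 or less. Eif2ak4 (GCN2), which senses uncharged tRNA, was 77.3, 126, 89.7, 132 and 99.1 in WT and between 98.5 and 177 with a median of 134 in Chd8L+/- libraries, with log2 fold change 0.35 and standard error 0.19 (limma adjusted p = 0.253). Of the Chd8L+/- libraries 4 lay above the highest WT value and none below the lowest. Eif2ak1 (HRI), which senses heme and mitochondrial stress, was 1475, 1017, 1547, 1629 and 1367 in WT and between 904 and 1502 with a median of 1265 in Chd8L+/- libraries, with log2 fold change -0.19 and standard error 0.16 (limma adjusted p = 0.464). WT replicate 2 (1017) and Chd8L+/- replicates 3, 4 and 5 (1087, 1044 and 904) formed the low end of both groups. Eif2ak2 (PKR), which binds double-stranded RNA, and Eif2ak3 (PERK), which senses unfolded protein in the endoplasmic reticulum, had log2 fold changes of 0.17 and 0.18, and Eif2ak3 was highest in Chd8L+/- replicates 1 and 2 (868 and 867) and lowest in replicate 6 (374).

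The eIF3 scaffold was represented by 14 genes, of which 12 had a fold change above 0, against 51.4% of all genes. In limma, 2 had an unadjusted p of 0.05 or less, both higher, where 12.5% of all genes were higher. The median log2 fold change of the 14 was 0.18, against 0.01 for all genes, and 0.27 without WT replicate 2. Eif3a, the largest core subunit, was 3022, 4309, 1939.9, 2339 and 2187 in WT and between 2736 and 4151 with a median of 3946 in Chd8L+/- libraries. WT replicate 2 had the highest value of all, and of the 7 Chd8L+/- libraries only replicate 7 fell within the range of the other 4 WT libraries. The mean was 2759 ± 955 in WT (n = 5) and 3761 ± 509 in Chd8L+/- libraries (n = 7), with log2 fold change 0.50 and standard error 0.18 (limma adjusted p = 0.142). The alternatives gave adjusted p-values of 0.000334 to 0.374, with 0.00713 in limma without WT replicate 2. The lowest came from DESeq2 without WT replicate 2, a fit added after seeing the data. Eif3b, which binds Eif3a in the core, had 1833 ± 597 in WT (n = 5) and 2491 ± 511 in Chd8L+/- libraries (n = 7), with log2 fold change 0.47 and standard error 0.20 (limma adjusted p = 0.180), and showed the same outlying libraries, with 2827 in WT replicate 2 and 1579 in Chd8L+/- replicate 7. Eif3f, the lowest of the scaffold genes by fold change, was 2303, 2956, 2289, 2435 and 2436 in WT and between 1635 and 2876 with a median of 2502 in Chd8L+/- libraries, with log2 fold change -0.09 and standard error 0.14 (limma adjusted p = 0.716). Its 4 WT libraries besides replicate 2 lay close together, within the Chd8L+/- range. The paralogs Eif3j1 and Eif3j2 share sequence (87.4% of the stretches of Eif3j2 occur in Eif3j1, and 37.7% of those of Eif3j1 in Eif3j2), so their separate values, both with log2 fold changes between 0.02 and 0.06, are uncertain. The other scaffold genes, Eif3c, Eif3d, Eif3e, Eif3g, Eif3h, Eif3i, Eif3k, Eif3l and Eif3m, had log2 fold changes of at most 0.24. Summed over the 14 genes, WT replicate 2 had 26298 normalized counts, above every Chd8L+/- library (18920 to 25684), and the lowest WT library had 15888.

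**Figure D3:**
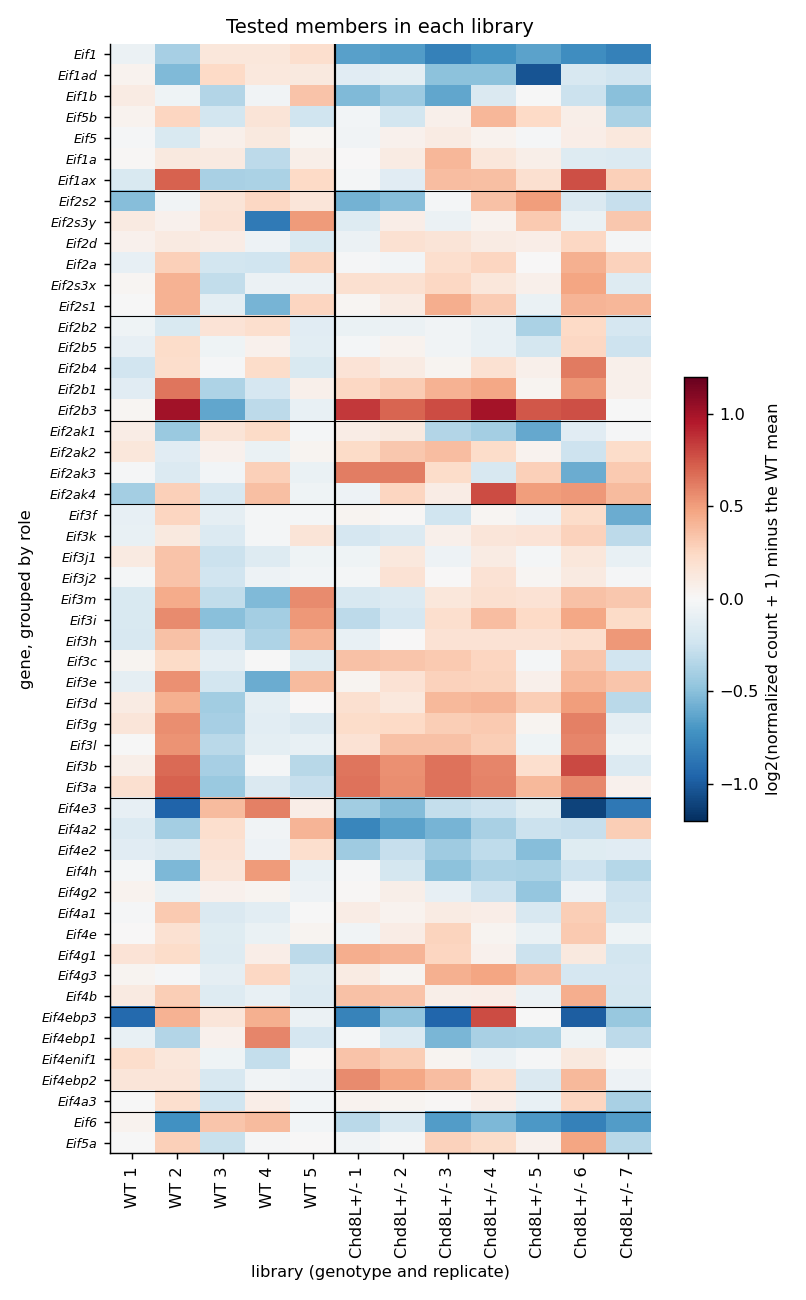
Colour gives log2(normalized count + 1) of each tested initiation factor in each library minus the mean of the WT libraries, with WT replicates 1 to 5 left of the line and Chd8L+/- replicates 1 to 7 right of it. Eif1 is blue in all Chd8L+/- libraries, and WT replicate 2 is red across the eIF3 genes and Eif2b3 and blue for Eif6, Eif4e3 and Eif4h.

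The cap-binding complex and its helicases had fold changes on both sides of 0. Of 10 genes, 5 had fold changes below 0 and 5 above, with a median log2 fold change of -0.06. An unadjusted p of 0.05 or less was reached by 1, which was lower, where 11.8% of all genes were lower. That gene, Eif4e2, encodes 4EHP, a cap-binding protein that cannot bind eIF4G and represses the mRNAs it holds. It was 1205, 1172, 1498, 1268 and 1521 in WT and between 929 and 1205 with a median of 1070.0 in Chd8L+/- libraries. Chd8L+/- replicates 6 and 7 reached the low end of the WT range, and the other 5 lay below it. The mean was 1333 ± 165 in WT (n = 5) and 1067 ± 108 in Chd8L+/- libraries (n = 7), with log2 fold change -0.32 and standard error 0.11 (limma adjusted p = 0.127). The exact permutation test gave p = 0.00631, and the adjusted p ranged from 0.0121 to 0.345 over the alternatives. The lowest adjusted p came from DESeq2 without WT replicate 2, a fit added after seeing the data. None of its 75-base stretches occurs in another gene. Eif4e itself, the cap-binding protein of the complex, had 726 ± 64.6 in WT (n = 5) and 767 ± 86.4 in Chd8L+/- libraries (n = 7), a log2 difference of 0.08. Eif4e3, another cap-binding paralog, had 320.3 ± 115 in WT (n = 5) and 215 ± 48.6 in Chd8L+/- libraries (n = 7), with log2 fold change -0.51 and standard error 0.25 (limma adjusted p = 0.219), with WT replicate 2 and Chd8L+/- replicates 6 and 7 at its low end (154, 138 and 165).

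Among these 10 genes, Eif4g3, a scaffold protein of eIF4F, had the smallest p of those with a positive fold change. It was 846, 818, 768, 986 and 741 in WT and between 719 and 1149 with a median of 886 in Chd8L+/- libraries, with log2 fold change 0.14 and standard error 0.14 (limma adjusted p = 0.554). Chd8L+/- replicates 3, 4 and 5 were above all WT libraries and replicates 6 and 7 below them. Eif4g1, the main scaffold, had a log2 fold change of 0.11, and Eif4g2, which lacks the eIF4E site, -0.15. The helicases were at 0.03 (Eif4a1) and -0.37 (Eif4a2, unadjusted p = 0.0664 in limma), and their helpers at 0.14 (Eif4b) and -0.29 (Eif4h). Of the stretches of Eif4a1, 62.9% occur in other genes, mostly a pseudogene. Without WT replicate 2, limma called Eif4e2, Eif4e3 and Eif4h lower at an adjusted p of 0.05 or less, where it called 13.6% of all genes lower.

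The 4E-binding proteins, which hold eIF4E away from the cap complex until mTORC1 phosphorylates them, included none with an unadjusted p of 0.05 or less among their 4 genes, with the transporter of eIF4E counted among them. Eif4ebp1 was 299, 249.6, 329, 478 and 277 in WT and between 217 and 312 with a median of 256 in Chd8L+/- libraries, with log2 fold change -0.27 and standard error 0.16 (limma adjusted p = 0.313). WT replicate 4 was the highest value by a wide margin, and 3 Chd8L+/- libraries lay below the WT range. Eif4ebp2 was 977, 975, 773, 858 and 844 in WT and between 784 and 1304 with a median of 1144 in Chd8L+/- libraries, with log2 fold change 0.25 and standard error 0.14 (limma adjusted p = 0.268). Of its Chd8L+/- libraries, 5 were above the highest WT value and the other 2, replicates 5 and 7, within the WT range. The 2 binding proteins thus had fold changes of opposite sign, neither past the threshold. Eif4ebp3 had few counts, 27.8 ± 9.23 in WT (n = 5) and 21.5 ± 11.8 in Chd8L+/- libraries (n = 7), and 64.2% of its stretches lie in an overlapping annotation. For Eif4enif1, the transporter, the log2 fold change was 0.10.

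Eif4a3, the helicase that anchors the exon junction complex on spliced mRNA, was 836, 959.9, 708, 882 and 818 in WT and between 638 and 999.6 with a median of 858 in Chd8L+/- libraries, with log2 fold change -0.01 and standard error 0.12 (limma adjusted p = 0.977). The Chd8L+/- range enclosed the WT range. Eif5a, which carries the amino acid hypusine and eases the ribosome over difficult sequences, was 4555, 5556, 3787, 4516 and 4572 in WT and between 3632 and 6337 with a median of 4734 in Chd8L+/- libraries, with log2 fold change 0.09 and standard error 0.15 (limma adjusted p = 0.718). Here too the Chd8L+/- range extended past the WT range at both ends.

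Eif6 was the second initiation factor that DESeq2 called. Its product binds the large ribosomal subunit, where it takes part in ribosome assembly and keeps that subunit from joining the small one too early. It was 5676, 3342, 6965, 7209 and 5396 in WT and between 3140.0 and 4821 with a median of 3469.5 in Chd8L+/- libraries. WT replicate 2 lay low within the Chd8L+/- range, and the other 4 WT libraries were above all 7 Chd8L+/- libraries. The mean fell from 5718 ± 1543 (n = 5) to 3790 ± 610 (n = 7), with an adjusted p of 0.0383 in DESeq2. In limma the log2 fold change was -0.56 (standard error 0.18, adjusted p = 0.125), the exact permutation test gave p = 0.0202, and the adjusted p over the alternatives ranged from 3.19e-05 to 0.345. The lowest adjusted p came from DESeq2 without WT replicate 2, a fit added after seeing the data. Without WT replicate 2, the log2 fold change was -0.74 with an adjusted p of 0.00468 in limma. An annotated gene on the opposite strand, Gm16098, shares 4.49% of the stretches of Eif6.

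Eif1 was then set against the other initiation factors. The 52 others had log2 fold changes of -0.56 to 0.69 with a median of 0.09 (all genes, 0.01) and middle 50% between -0.09 and 0.18; 17 were below 0 and 35 above, where 48.6% and 51.4% of all genes lay, and 36 lay within 0.25 of 0. The middle 50% and the number within 0.25 of 0 are not given for all genes, so neither sets these factors apart from other genes. In each library, log2(normalized count + 1) of Eif1 was compared with the median of the 52 others. Eif1 exceeded that median by 2.54, 2.01, 2.97, 2.87 and 2.59 in WT replicates 1 to 5. In Chd8L+/- replicates 1 to 7 it did so by 1.94, 1.84, 1.67, 1.76, 2.01, 1.63 and 1.79. The difference narrowed by 0.79 on average (2.60 ± 0.37 in WT, n = 5, and 1.81 ± 0.14 in Chd8L+/-, n = 7), and the groups met at 2.01, in WT replicate 2 and Chd8L+/- replicate 5. The median of the others hardly differed between groups (9.89 ± 0.20 in WT and 9.96 ± 0.09 in Chd8L+/- libraries). Of all normalized counts on initiation factors, Eif1 held 4.22% to 6.60% in WT and 3.27% to 4.09% in Chd8L+/- libraries, while the sum over all others was 94389 ± 3274 (n = 5) and 93585 ± 6063 (n = 7). Per kilobase of the longest annotated transcript, Eif1 was the most abundant of the family in WT, at 4379 normalized counts, followed by Eif6 (3812), Eif5a (3199) and Eif4h (3026).

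**Figure D4:**
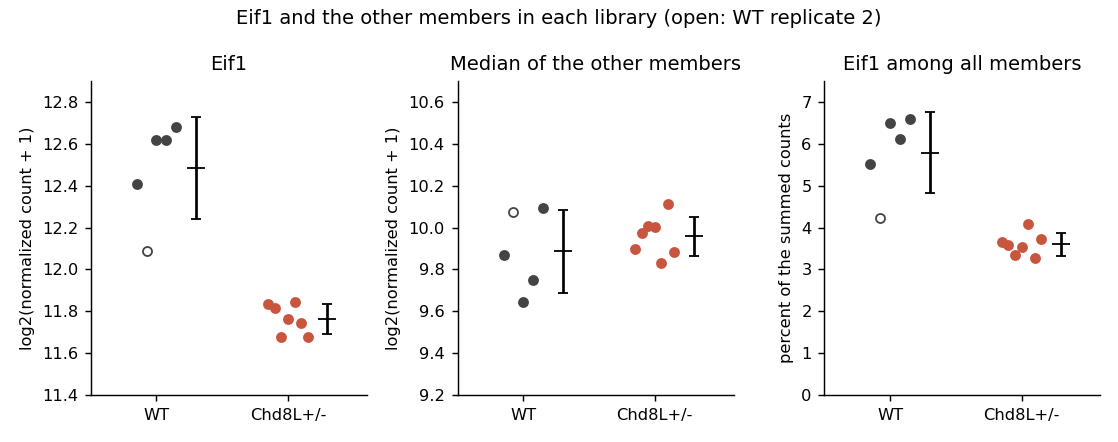
The panels show, for each library, log2(normalized count + 1) of Eif1, the median of the same value over the 52 other tested initiation factors, and the percent of all initiation factor counts held by Eif1, with the mean and SD of each genotype and an open point for WT replicate 2. Eif1 and its share are lower in all Chd8L+/- libraries, and the medians of the others overlap.

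Genes of translation outside the family were counted as lower or higher at an unadjusted p of 0.05 or less in limma. Of 28 genes listed as initiation partners with other names, 8 had an unadjusted p of 0.05 or less and a positive fold change, 0 a negative one. The median log2 fold change of the list was 0.26. The list was drawn widely and also holds Nat10, Ltv1 and Gtf3a, which are not initiation factors. By p it was led by the RNA acetyltransferase Nat10 (0.98), the ribosome recycling factor Abce1 (0.65) and the helicase Dhx29 (0.61), which helps the small subunit through structured leaders. Of 20 elongation factors and their modifying enzymes, 3 were higher and 1 lower (median 0.19). The lower one was Dhps, which takes part in making the hypusine of eIF5A (-0.45). The diphthamide enzymes Dph7 (0.64) and Dph1 (0.84) were higher. Of 9 termination and recycling factors, 2 were higher (Abce1 and N6amt1, 0.62; median 0.03). Of 22 cytosolic aminoacyl-tRNA synthetase genes, 6 were higher and 0 lower (median 0.25), led by Eprs (0.59), Lars (0.49) and Nars (0.44). That list also counts Aimp1 and Aimp2, proteins of the synthetase complex that are not synthetases themselves. These counts stand against 11.8% of all genes lower and 12.5% higher. With all 12 libraries, 0 genes of these 4 lists passed an adjusted p of 0.05 in limma or in DESeq2. Without WT replicate 2, limma called 11, 5, 2 and 10 genes of the 4 lists higher, in the order above, against 14% of all genes. It called 0, 1, 1 and 0 of them lower, against 13.6% of all genes.

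The pathways that govern eIF2 and eIF4E were counted likewise, against the same 11.8% of all genes lower and 12.5% higher. Of 26 targets of the integrated stress response, the program that follows eIF2 phosphorylation, 5 had an unadjusted p of 0.05 or less and were lower and 3 were higher (median 0.05); by p they were led by Ddit4 (-0.83) and Ddit3 (-0.72), both lower, and Cth (0.77), an enzyme of cysteine synthesis, which was higher. Of 21 genes of the mTORC1 pathway, 6 were lower and 4 higher (median -0.04), and the 3 of smallest p, Lamtor5 (-0.52), Lamtor3 (-0.47) and Lamtor2 (-0.39), are subunits of the Ragulator that anchors mTORC1 on the lysosome. No gene of either list passed an adjusted p of 0.05 in limma. DESeq2 called 3 of each list, all lower, where it called 4.61% of all genes lower and 1.84% higher. Without WT replicate 2, limma called 6 stress response targets lower and 5 higher. In the same fit it called 5 mTORC1 pathway genes lower and 3 higher, against 13.6% and 14% of all genes.

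**Figure D5:**
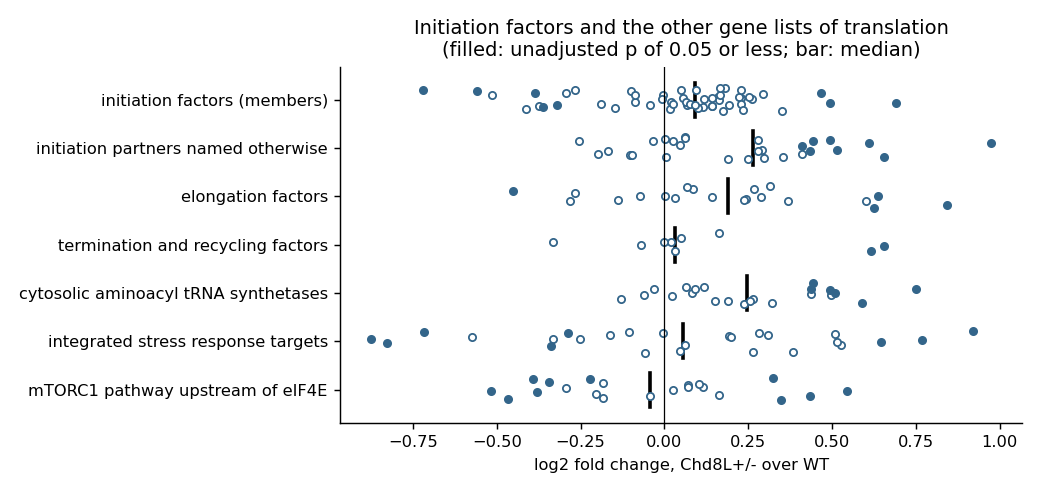
Each point is the log2 fold change of a tested gene, Chd8L+/- over WT, for the initiation factors and for 6 other lists of translation genes, filled at an unadjusted p of 0.05 or less in limma, with a bar at the median of the list. The medians lie between -0.04 and 0.26, and Eif1 is the point at -0.72 in the top line.

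Markers of cells and of handling were counted by the same unadjusted p, at which 11.8% of all genes were lower and 12.5% higher. No marker of these lists with a value here was at 0 in every library. The part of cell makeup or handling in the differences of the initiation factors was not tested. All 10 markers of epithelium were present, summing to 204305 to 350847 normalized counts in WT and 198014 to 326055 in Chd8L+/- libraries, with 1 lower (Krt18). Of 12 tuft cell markers, 12 were lower (sums of 3518 to 33303 in WT and 1983 to 14069 in Chd8L+/-, with WT replicate 2 the lowest WT library). Of 14 enterocyte markers, 4 were lower (445170 to 1011282 and 390814 to 819977), and of 24 cell cycle genes, 22 were higher (4978 to 21125 and 12206 to 22539, with WT replicate 2 the highest WT library). Of the lymphocyte markers, 1 of 15 was lower (5048 to 9356 and 3553 to 9583), of the myeloid markers 2 of 10 higher (1324 to 3457 and 1955 to 4131), and of the stromal and muscle markers 4 of 10 higher (261 to 799 and 281 to 3441). Of 29 heat shock and handling genes, 9 were lower (130835 to 163749 and 119810 to 163403), led by Hspa1b and Hspa1a, and of 11 glucocorticoid response genes, 6 (13243 to 20201 and 8320 to 13604), led by Tsc22d3. Hspa1b, Hspa1a and Tsc22d3 were the 3 genes of the whole table below an adjusted p of 0.05 in limma.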

How the data were processed

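Poly(A) RNA of gut epithelial cells from 5 WT and 7 Chd8L+/- mice was sequenced by the authors as 75-base single-end reads, mapped to mm10 and run through DESeq2. Each deposited value is a normalized signal: the authors divided the reads on a gene by the library's size factor; the counting program and its annotation are not given in the sources used here. The values of each library were whole multiples of what 1 read was worth (100% whole to within 0.01), so reads could be recovered, 15691662 to 20761315 per library. All 12 columns were matched to mice by library name, and 0 other columns were present.

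Genes with a mean of at least 10 were tested with limma 3.58.1 (R 4.3.3, eBayes with a mean trend) on log2(value + 1), with no block, over all 12808 genes, and called at an adjusted p of 0.05 or less. Fold changes on this scale understate those of low genes. The alternatives were DESeq2 1.42.0 and edgeR 4.0.16 on recovered reads, quantile normalization, other pseudocounts (0.5 and 5), all genes, only genes with 10 or more in each library, the replicate number or the library letter as a block, natural spline trends on transcript length and GC content (4 degrees of freedom) removed, and each library left out. Added after seeing the data were 4 fits without WT replicate 2: DESeq2, edgeR, the length and GC correction and the letter block.

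The initiation factors, the focus on Eif1 and the gene lists were chosen with earlier results of these data known. Eif1 was named with the value of every library. Eif1b, factors called by limma or DESeq2 and, in each role, the smallest p in each direction were named with every WT value and the Chd8L+/- range and median. In other lists, up to 3 genes were named by p. Positions, transcripts and sequences come from GENCODE M21 on GRCm38, the assembly that mm10 names, which need not be the annotation of the authors. Of the steps, only the limma fit was tested on simulated data, which held no library set apart from its group as WT replicate 2 was.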

Additional observations from a re-analysis of the deposited data

Results flagged for a closer look

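Of 40 groups of libraries checked for 1 value far from the others, 2 had one, and chance alone gives about 2 of 40. Eif2b3 stood at 5.76 on the log2(normalized count + 1) scale in Chd8L+/- replicate 7, where the other 6 Chd8L+/- libraries lay between 6.46 and 6.77. Eif3f stood at 11.5 in WT replicate 2, where the other 4 WT libraries lay between 11.2 and 11.3.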

How the results depend on the processing

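Over 26 alternatives, the log2 fold change of Eif1 stayed below 0 and lay between -0.82 and -0.50; it passed an adjusted p of 0.05 in 7 of them. These were DESeq2 (-0.73), the library letter block (-0.70, adjusted p = 0.0434 in limma), limma without WT replicate 2 (-0.82) and, without that library, DESeq2 (-0.82), edgeR (-0.80), the length and GC correction (-0.68) and the letter block (-0.77). With each library left out in turn it lay between -0.82 and -0.67. The difference between Eif1 and the median of the others kept its sign in all 26 (-0.94 to -0.64), as did the median of the others (0.06 to 0.15).

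Of the initiation factors, the count lower at an unadjusted p of 0.05 or less was 3 under quantile normalization, between 3 and 9 with each library left out, and, without WT replicate 2, 9 in DESeq2, edgeR and the length and GC correction and 8 with the letter block. Of all genes, 10.4% were lower under quantile normalization, 7.02% to 19.9% with each library left out and 18.1% to 20.9% in those fits without WT replicate 2. The count higher was 7 under quantile normalization, 5 with the letter block, 6 with the length and GC correction, between 0 and 10 with each library left out, and, without WT replicate 2, 10, 13, 15 and 11 in the same order. Of all genes, 11.6%, 14.7% and 12.3% were higher in the first 3 of these, 6.78% to 20.3% with each library left out and 20.2% to 21.1% without WT replicate 2. Its low values were 0 (WT replicate 3 left out) and 1 (WT replicate 5 left out). At an adjusted p of 0.05 or less, 2 were lower in DESeq2 and 1 with the letter block; the counts lower and higher ranged from 0 to 6 and 0 to 5 with each library left out, and without WT replicate 2 they were 6 and 5 in DESeq2, edgeR and the letter block and 9 and 10 with the length and GC correction. Over all genes, calls numbered 5 in edgeR, 811 in DESeq2, 0 with the replicate block, 451 with the letter block, 0 with the length and GC correction and 0 to 3533 with each library left out; without WT replicate 2 they numbered 4112, 3388, 3664 and 3314 in the order above.

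Small fold changes turned sign, here given in full for the factors named by rule. Eif2b2 was at 0.0262 with the length and GC correction and at 0.00576 with it and without WT replicate 2. Eif2s2 was at 0.0382 under quantile normalization, 0.0891 with the letter block and 0.11 with that block and without WT replicate 2. Eif3f was at 0.0473 under quantile normalization and, without WT replicate 2, at 0.0160 in edgeR and 0.0569 with the letter block, and Eif4g3 was at -0.0146 with the length and GC correction and without WT replicate 2. Eif4a3 was at 0.0425 under quantile normalization, 0.00873 in edgeR, 0.0166 with the replicate block, 0.0568 with the letter block, 0.11 with the length and GC correction, and, without WT replicate 2, 0.0489 in DESeq2, 0.0692 in edgeR, 0.18 with the length and GC correction and 0.11 with the letter block; with each library left out it lay between -0.0673 and 0.0567. Of the factors outside that rule, the sign also turned in 15 of 26 alternatives for Eif3k, in 6 each for Eif5b and Eif3j1, in 5 for Eif2b5, in 3 each for Eif5 and Eif4a1, in 2 for Eif1a and in 1 each for Eif2s3y, Eif3m, Eif4e and Eif4g2. The cause of these changes was not tested.

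The deviations from the group means of samples with the same replicate number were compared. Their correlations were 0.19, -0.34, -0.13, -0.17 and -0.23 for numbers 1 to 5. Each rests on 1 pair of libraries, so they do not settle whether the numbers pair mice. With the replicate block, Eif1 had a log2 fold change of -0.70 and an adjusted p of 0.211 in limma (4.92e-19, in DESeq2 without WT replicate 2, to 0.260 over all alternatives). Counting error limits Eif5a2, Eif4ebp3 and Eif2b3, and Eif3j1, Eif3j2, Eif4a1 and Eif4ebp3 share much of their sequence with other annotated genes.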
